A study of Mus musculus with 32 samples.

Results

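In mouse tibialis anterior, a fast muscle of the shin, 10 genes were followed from uninjured muscle to day 7 and day 35 after injury: Dkk3, Rasd2, Tmem132b, Syt9, Bdh1, Odf3l2, Exph5, Slc15a5, Elf3 and Pkdrej. They were chosen by their measured falls after injury, at day 7 or day 35, in young or old muscle, so those falls are described here without a test. The gene count table lists 54532 genes, and these 10 are matched in it by symbol. All 10 were among the 17121 genes that passed the filter on low counts. In each arm of the study at least 9 of the 10 had all injured libraries below all uninjured libraries at each time. This describes the choice and is no separate result. Whether the injured libraries of the BI01 arm, introduced below, entered the choice is not stated, while the uninjured libraries set against them did enter it. The share of all genes tested that were separated in this way was not counted.

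RNA-seq was done on 32 libraries of C57BL/6J mice in 8 groups of 4. Young and old mice (their ages in months are not stated) received vehicle and gave uninjured muscle, muscle at day 7 and muscle at day 35 after an injury written as BaCl-induced in the series text. Old mice that received BI01, which that text calls a senolytic, an agent aimed at cells that have stopped dividing for good, gave muscle at day 7 and day 35 only. All BI01 muscle was injured, and its uninjured reference here is the old vehicle group. The uninjured columns of the table are marked PBS and belong to the 35-day set, so the sampling day and the injury cannot be told apart in comparisons of day 7 with uninjured muscle. The labels do not say that libraries came from separate animals, so p-values measure the spread between these samples, which may be technical.

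Barium chloride kills muscle fibres and spares many of the stem cells beside them. Those satellite cells divide, fuse and build new fibres, which first make embryonic forms of the contractile proteins and later replace them with adult forms. Because the RNA comes from whole muscle, fewer cells of a type and less RNA per cell cannot be told apart. The 10 genes have no common function. Dkk3 encodes a secreted glycoprotein of the Dickkopf family, whose other members block Wnt signalling. Rasd2 encodes Rhes, a small GTPase of the Ras family best known from the striatum. Elf3 encodes a transcription factor of the ETS family that is typical of epithelia. Syt9 belongs to the synaptotagmins, calcium sensors of vesicle fusion, and Exph5 encodes an effector of the vesicle GTPase Rab27. Slc15a5 belongs to a family of proton-coupled peptide transporters. Bdh1 encodes the mitochondrial dehydrogenase that interconverts the ketone bodies acetoacetate and 3-hydroxybutyrate. Tmem132b encodes a transmembrane protein whose role is poorly known. Odf3l2 is related to a protein of the outer dense fibres of the sperm tail, and Pkdrej is a polycystin relative described in sperm. In the count table, whose build is mm10 per the submitters' processing notes, the genes are spread over the genome. It places Dkk3 on chromosome 7 from 112116017 to 112159057, Rasd2 on chromosome 8 from 75213944 to 75224113, Tmem132b on chromosome 5 from 125531774 to 125792583, Syt9 on chromosome 7 from 107370728 to 107548656, Bdh1 on chromosome 16 from 31422280 to 31458901. The others are Odf3l2 on chromosome 10 from 79639526 to 79645738, Exph5 on chromosome 9 from 53301670 to 53377514, Slc15a5 on chromosome 6 from 137983586 to 138079916, Elf3 on chromosome 1 from 135253575 to 135258568, Pkdrej on chromosome 15 from 85814670 to 85821734.

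RefSeq promoter windows, from 250 bases before to 50 bases after a gene's start (assembly GRCm38.p6), were matched for 7 of the 10 genes, and none were matched for Dkk3, Odf3l2 and Pkdrej. The 4 windows below belong to genes that ended at different levels at day 35, Rasd2, Tmem132b and Slc15a5 having regained part of their RNA and Exph5 almost none. Capitals mark E-boxes (CANNTG, both strands), the motif bound by MyoD and related factors of muscle and by many other basic helix-loop-helix factors. The windows lie at chr8:75213694-75213993 on the plus strand (Rasd2), chr5:125532168-125532467 on the plus strand (Tmem132b), chr6:138079867-138080166 on the minus strand (Slc15a5) and chr9:53301420-53301719 on the plus strand (Exph5), each printed 5′ to 3′ in the direction of the gene. The RefSeq start used for Tmem132b lies downstream of the start that the count table gives.
Rasd2: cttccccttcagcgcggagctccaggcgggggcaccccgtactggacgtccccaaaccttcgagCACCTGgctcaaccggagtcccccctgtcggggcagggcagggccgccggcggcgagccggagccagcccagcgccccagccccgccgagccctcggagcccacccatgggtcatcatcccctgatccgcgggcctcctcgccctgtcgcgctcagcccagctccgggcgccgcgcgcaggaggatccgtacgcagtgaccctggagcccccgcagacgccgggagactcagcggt
Tmem132b: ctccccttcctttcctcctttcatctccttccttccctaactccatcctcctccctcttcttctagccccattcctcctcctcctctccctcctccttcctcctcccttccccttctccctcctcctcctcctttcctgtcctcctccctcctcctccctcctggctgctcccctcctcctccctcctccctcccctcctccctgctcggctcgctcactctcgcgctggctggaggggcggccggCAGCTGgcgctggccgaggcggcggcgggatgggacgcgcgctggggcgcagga
Slc15a5: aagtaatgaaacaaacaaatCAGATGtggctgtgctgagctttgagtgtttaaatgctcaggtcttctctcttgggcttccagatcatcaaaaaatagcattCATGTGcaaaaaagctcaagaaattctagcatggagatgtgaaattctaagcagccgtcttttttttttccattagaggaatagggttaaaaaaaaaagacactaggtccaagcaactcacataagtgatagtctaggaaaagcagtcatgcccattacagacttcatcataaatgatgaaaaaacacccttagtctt
Exph5: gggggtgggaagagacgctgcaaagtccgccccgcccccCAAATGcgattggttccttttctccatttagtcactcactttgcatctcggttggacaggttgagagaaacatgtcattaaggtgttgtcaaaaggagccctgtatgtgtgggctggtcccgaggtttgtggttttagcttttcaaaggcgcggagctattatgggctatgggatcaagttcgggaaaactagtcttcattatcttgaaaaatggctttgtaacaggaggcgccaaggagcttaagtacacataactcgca
An E-box was in 6 of the 8 windows of these genes (Bdh1 has 2 windows) and in 72.3% of all 32851 windows of the table. The E-box form CAGCTG, preferred by MyoD, was in 1 of the 8, that of Tmem132b, and in 16.3% of all. The GC box GGGCGG was in 4 of the 8 and in 35.7% of all, and TATAAA was in 0 of the 8 and in 13.6% of all. MEF3 sites (TCAGGTT) were in 1 of the 8, that of Elf3, and in 4.07% of all. The MEF2 motif was in 0 of 8 (1.86% of all), as was the extended site of estrogen-related receptors (0.423% of all). The windows also differed in base composition, with 36.7% G and C in Slc15a5, 48.7% in Exph5, 67.7% in Tmem132b and 74.7% in Rasd2, against a median of 52.7% over all windows. These letter matches describe the windows and identify no site in use.

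Levels are given as CPM, counts per 1000000 counts of a library after TMM scaling, which corrects library totals for a few very abundant genes. Total counts per library were 14129350 to 30439358. Markers of mature fast fibres were abundant, as the tissue label implies, with 17 of them summing to 299000 to 392300 CPM in young uninjured muscle. The TMM factors of these libraries were 0.673 to 0.734, so such sums are above the share of their total counts. With library size alone in place of TMM, the log2 fold change at the median gene went from 0.17 to 1.05 for day 7 against uninjured in young muscle, from 0.14 to 1.15 in old muscle, from 0.13 to 0.34 for day 35 in young muscle and from -0.09 to -0.97 for day 35 against day 7 with BI01. For age it went from 0.09 to 0.29 in uninjured muscle and from 0.04 to 0.36 at day 7. Differences are stated relative to the TMM scale.

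In uninjured muscle the 10 genes differed widely in level per kilobase of transcript. Rasd2 was highest, at a mean of 23.2 CPM per kilobase in young and 35.3 in old muscle. Odf3l2 stood at 15.4 and 10.2 and Dkk3 at 13.1 and 16.4 CPM per kilobase. The lowest levels in young muscle were those of Bdh1 (0.298 CPM per kilobase) and Exph5 (0.531), and in old muscle those of Exph5 (0.350) and Pkdrej (0.521).

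As a set, the 10 genes stood far below their uninjured level at both times. At day 7 their group means were 0 to 26.3% of the uninjured mean in young muscle, with a median of 1.28%, and 0 to 17.8% in old vehicle muscle, with a median of 1.49%. At day 35 the means were 0.713 to 24.7% in young muscle, with a median of 7.72%, and 0.550 to 13.5% in old vehicle muscle, with a median of 5.49%. Old BI01 muscle had means of 0.0704 to 16.1% at day 7 (median 3.82%) and 0.692 to 9.56% at day 35 (median 4.81%). The highest group mean at day 35 was thus 24.7%, that of Odf3l2 in young muscle, although without young uninjured library 2 that of Bdh1 was 29.5%. Without the same library Bdh1 stood at 57.0% in place of 26.3% at day 7. The genes were selected on these differences. For scale, edgeR called 27.5% of all genes tested lower and 33.3% higher at day 7 in young muscle, and 29.8% lower and 34.4% higher in old vehicle muscle. At day 35 it called 8.66% lower and 7.06% higher in young and 2.47% lower and 3.17% higher in old vehicle muscle.

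Fast fibre markers took another course. Their summed CPM was 38.2% of the uninjured value at day 7 and 81.1% at day 35 in young muscle, and 22.5% and 97.1% in old vehicle muscle. With BI01 it was 22.8% and 97.0%. Of the 17 markers, 10 were called lower at day 7 in young and 15 in old vehicle muscle, with 0 called higher, and 0 of the 17 were called in either direction at day 35 in young or old vehicle muscle (edgeR quasi-likelihood test, adjusted p under 0.05). Ckm, the muscle creatine kinase gene, stood at 28.3% of its uninjured mean at day 7 and 93.2% at day 35 in young muscle. Single markers varied there at day 35, with Ryr1 at 63.1%, Mybpc2 at 67.2% and Actn3 at 70.3%, but Tnni2 at 106.3% and Eno3 at 137.8%. The fast troponin gene Tnnt3 stood at 13.2% of its uninjured mean at day 7 in old vehicle muscle (log2 fold change -2.93, SE 0.37, adjusted p = 4.86e-08 by edgeR) and at 87.9% at day 35. Set against the summed markers of the same library, the 10 genes had a median ratio of 3.12% of the uninjured ratio at day 7 and 9.58% at day 35 in young muscle. In old vehicle muscle these medians were 9.86% and 5.77%, and with BI01 they were 22.8% and 4.92%. The day 7 medians rest partly on 1 library each, being 6.14% without old vehicle library 7 and 7.96% without BI01 library 2, and the day 35 median with BI01 was 3.18% without library 7. At day 35 the levels of the 10 genes were low per unit of fibre RNA as well as per library. The choice of genes with large falls after injury favours such values, and their cause was not tested. These whole-muscle data do not assign the 10 genes to fibres, although they had been proposed as fibre genes.

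**Figure D1:**
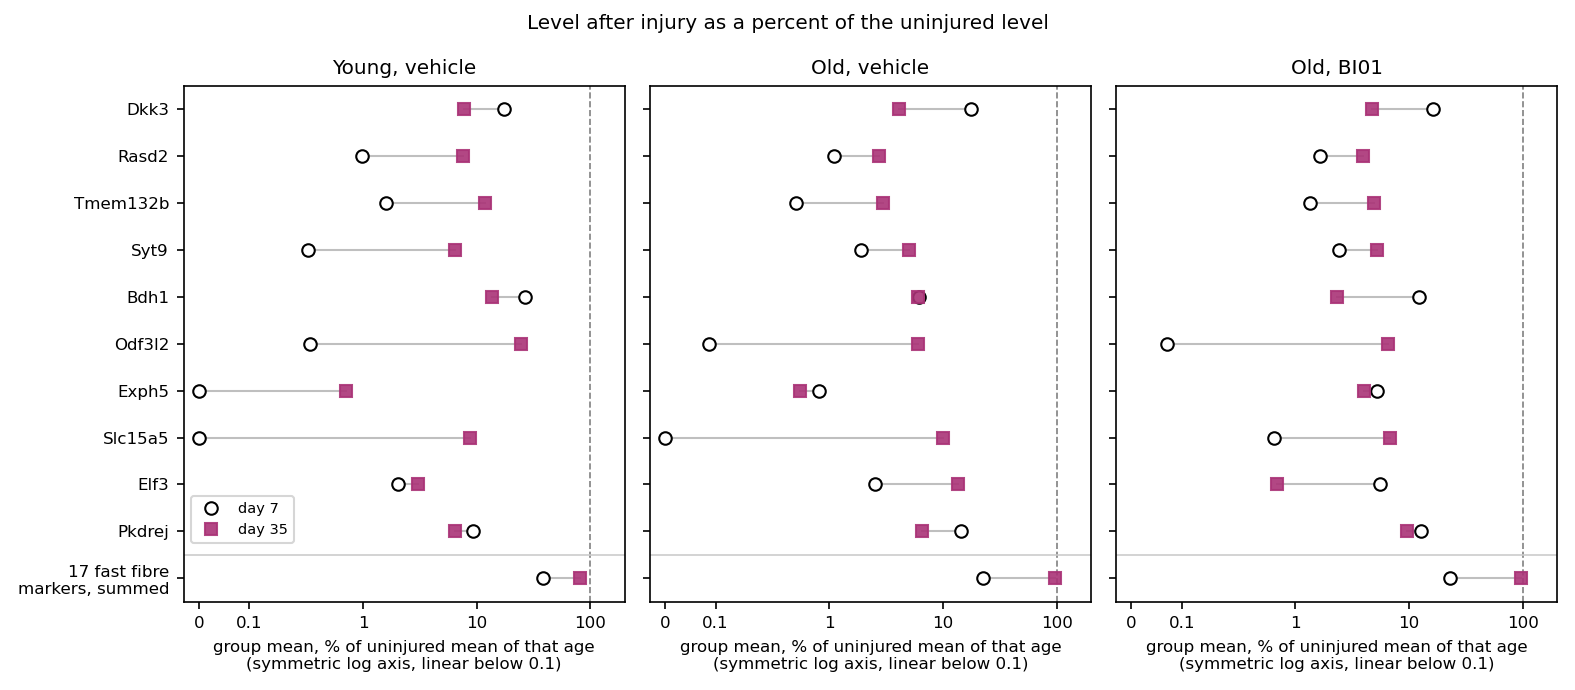
Group mean of each gene at day 7 (open circles) and day 35 (filled squares) as a percent of the uninjured mean of the same age, with the sum of 17 fast fibre markers in the bottom row; the horizontal axis is a symmetric log scale that is linear below 0.1%, and old vehicle muscle is the reference of the BI01 arm. At day 35 the markers stood at 81.1 to 97.1% of uninjured, and the 10 genes at 0.550 to 24.7%.

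Other cell types changed around the fibres. Macrophage markers (8 genes, such as Adgre1 and Csf1r) had a median sum of 63.2 CPM in young uninjured muscle, 1081 at day 7 and 95.2 at day 35. Fibroblast and fibro-adipogenic markers (7 genes) summed to 243 to 449.9, 7083 to 11560 and 512 to 909 CPM, and 5 of the 7 were called higher at day 35 in both ages. Markers of regenerating fibres (6 genes, such as the embryonic myosin gene Myh3) summed to 52.3 to 90.3, 6904 to 8777 and 236 to 349 CPM in young muscle. In old vehicle muscle the regenerating fibre sum was 103 to 1227 CPM before injury, 3635 to 7960 at day 7 and 279.9 to 537 at day 35. Schwann cell and nerve markers were scarce, with a median sum of 15.8 CPM in young uninjured muscle and 12.7 at day 35, and of 20.3 and 11.7 CPM in old vehicle muscle. Endothelial markers summed to 201 to 233 and 199 to 313 CPM in young muscle. Of the 6 epithelial markers, Epcam, Krt5 and Krt14 were at 0 counts at day 35 in all 3 arms and Epcam also in uninjured muscle of both ages. The sum of the 6 was nevertheless 21.5 to 231.9 CPM in old vehicle muscle at day 35 (median 55.6). It came there from Krt8, Krt18 and Cdh1 alone. Before injury the sum was 1.12 to 27.7 CPM, and the day 35 mean was 1013% of the uninjured mean. In old vehicle muscle at day 35, 2 of the 3 markers tested were called higher than in uninjured muscle. Against young muscle at day 35, 2 of 3 were called higher. The sum was 1.84 to 4.25 CPM before injury and 2.98 to 10.1 CPM at day 35 in young muscle, and 3.24 to 6.97 CPM at day 35 with BI01. The part of these changes in the levels of the 10 genes was not tested.

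**Figure D2:**
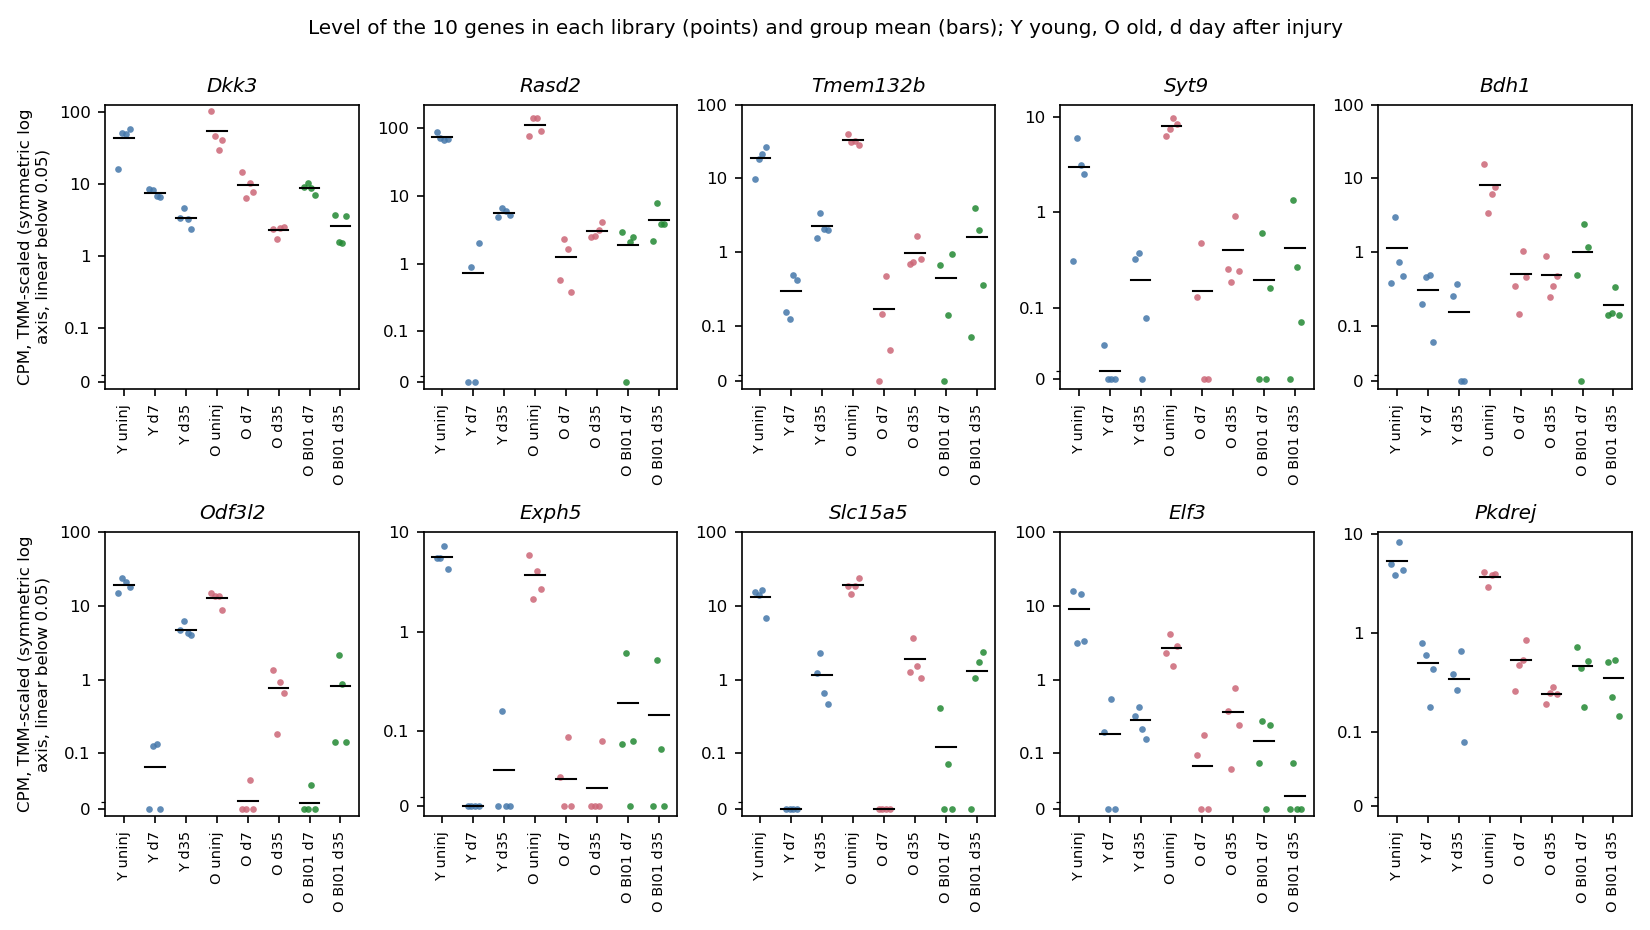
Level of each gene in every library (points, 4 per group) with the group mean (bars), on a symmetric log axis of CPM that is linear below 0.05; blue is young vehicle, red old vehicle and green old BI01 muscle. Every injured library lay below the uninjured libraries of the same age, except 2 young libraries of Bdh1 at day 7 and 2 of Syt9 at day 35. The genes were chosen for falls after injury.

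Odf3l2 was the 1 gene of the 10 called different between the ages at day 35. Its uninjured libraries were at 14.8, 23.7, 20.7 and 17.7 CPM in young and at 14.8, 13.6, 13.6 and 8.86 CPM in old muscle. At day 7 it had 6 counts over the 4 young libraries (0, 0.127, 0.135 and 0 CPM) and 1 count over the 4 old vehicle libraries. Day 35 brought it to 4.65, 6.11, 4.26 and 4.00 CPM in young and at 1.33, 0.184, 0.914 and 0.648 CPM in old vehicle muscle. The groups at day 35 did not overlap with those at day 7 in either age, and young muscle had regained 24.7% of its uninjured mean where old vehicle muscle had regained 6.06%. Old muscle was lower than young at day 35, at 0.770 ± 0.482 against 4.75 ± 0.944 CPM (SD, n = 4), a log2 fold change of -2.62 (SE 0.52, edgeR adjusted p = 0.00246). All 4 old libraries lay below all 4 young ones, and over the alternatives the log2 fold change ran from -3.05 to -2.28 with adjusted p from 3.94e-05 to 0.0156. The vehicle libraries of this comparison had entered the choice of the genes, which was for falls from uninjured muscle. A choice for low day 35 levels in either age can favour a difference between the ages at day 35. This p-value is therefore not independent of the choice. In uninjured muscle the difference was -0.60 (SE 0.43, adjusted p = 0.390), and whether the age effect differed between uninjured and day 35 muscle was not tested.

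Slc15a5 had no counts at day 7 in any of the 8 vehicle libraries. It stood at 15.3, 14.1, 16.4 and 6.85 CPM in young and at 18.5, 14.5, 18.4 and 23.8 CPM in old uninjured muscle. With a floor of 3 counts over the group, day 7 was at least 384-fold lower in young and at least 642-fold lower in old muscle. By day 35 every vehicle library held counts again, at 1.23, 2.29, 0.650 and 0.470 CPM in young and 1.27, 3.68, 1.55 and 1.05 CPM in old muscle. The means were 8.79% of uninjured in young and 10.04% in old muscle. The ages overlapped at day 35 (log2 fold change 0.67, interval -0.67 to 2.02, edgeR adjusted p = 0.733), so a difference between old and young was not shown in either direction.

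Rasd2 was the most abundant of the 10 before injury, at 87.8, 71.1, 66.0 and 69.8 CPM in young and 77.2, 139.6, 141 and 90.6 CPM in old muscle. At day 7 it was at 0, 0.890, 0 and 2.02 CPM in young and 0.580, 2.30, 1.67 and 0.376 CPM in old vehicle muscle. At day 35 it was at 4.84, 6.54, 5.99 and 5.17 CPM in young and 2.48, 2.52, 3.17 and 4.05 CPM in old vehicle muscle. Day 35 lay above day 7 without overlap in both ages, at 7.65% of uninjured in young and 2.72% in old. The young and old libraries did not overlap at day 35 either, but edgeR did not call this difference (-0.90, SE 0.67, adjusted p = 0.594). A fit of the 2 groups alone called it, with an adjusted p of 0.0163.

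Tmem132b had a like course at a lower level. Its uninjured libraries were at 9.97, 18.4, 21.2 and 26.8 CPM in young and 40.0, 31.5, 31.8 and 28.2 CPM in old muscle. At day 7 they were at 0.158, 0.127, 0.494 and 0.428 CPM in young and 0, 0.146, 0.482 and 0.0470 CPM in old vehicle muscle. Day 35 gave 1.55, 3.40, 2.09 and 2.04 CPM in young and 0.699, 0.737, 1.69 and 0.810 CPM in old vehicle muscle, again above day 7 without overlap. These were 11.9% of uninjured in young and 2.99% in old muscle. Old against young at day 35 was -1.22 on the log2 scale (SE 0.72, adjusted p = 0.450 by edgeR, and 0.0495 in a fit of the 2 groups alone).

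Dkk3 went the other way after day 7. Uninjured libraries were at 16.3, 51.3, 49.4 and 59.2 CPM in young and 103, 46.7, 29.8 and 40.8 CPM in old muscle, a wide spread. At day 7 they were at 8.58, 8.35, 6.74 and 6.73 CPM in young and 14.8, 6.43, 10.3 and 7.67 CPM in old vehicle muscle. At day 35 they were lower still, at 3.42, 4.62, 3.32 and 2.35 CPM in young and 2.41, 1.72, 2.46 and 2.51 CPM in old vehicle muscle. Day 35 lay below day 7 without overlap in both, by 2.22-fold in young and 4.30-fold in old muscle. The level was 17.2% of uninjured at day 7 and 7.79% at day 35 in young, and 17.8% and 4.13% in old muscle. Per unit of fast fibre marker the old vehicle value at day 7 was 168% of the uninjured ratio, with libraries from 83.0 to 982 CPM per 1000000 CPM of markers, and 4.28% at day 35. Without old vehicle library 7 at day 7 the first of these was 53.0%.

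Exph5 barely returned. It was at 5.41, 5.43, 7.27 and 4.25 CPM in young and 5.87, 2.11, 4.08 and 2.67 CPM in old uninjured muscle. At day 7 it had 0 counts in young muscle, at least 163-fold lower with the floor of 3 counts, and 3 counts in old vehicle muscle. By day 35 there were 3 counts in young muscle, all in 1 library, and 1 count in old vehicle muscle. The uninjured to day 35 ratio of shares of counts was 114 in young (exact 95% counting interval 38.4 to 554) and 193 in old muscle (34.3 to 7657). At these counts a rise between day 7 and day 35 was not detectable.

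Pkdrej and Elf3 also stayed low. Pkdrej was at 3.83 to 8.28 CPM in young and 2.87 to 4.12 CPM in old uninjured muscle. It was at 0.180 to 0.790 and 0.258 to 0.847 CPM at day 7, and at 0.0784 to 0.650 and 0.191 to 0.281 CPM at day 35. Its 2 times overlapped in both ages, at 9.31% and 6.46% of uninjured in young and 14.3% and 6.53% in old muscle. Elf3 varied widely among young uninjured libraries, which were at 15.8, 3.11, 14.4 and 3.28 CPM. In old uninjured muscle it was at 2.29, 4.14, 1.52 and 2.85 CPM. At day 7 it was at 0 to 0.539 CPM in young and 0 to 0.175 CPM in old vehicle muscle, and at day 35 at 0.157 to 0.425 and 0.0614 to 0.774 CPM. Day 35 was 3.06% of uninjured in young and 13.5% in old vehicle muscle, where the uninjured mean itself was lower. Without old vehicle library 8 the latter was 8.46%. The epithelial marker sum of old vehicle muscle was high at day 35 through Krt8, Krt18 and Cdh1, with Epcam, Krt5 and Krt14 at 0 counts. The part of this sum in the level of Elf3 was not tested. An antisense gene, Gm26642, overlaps Elf3 and has 580 counts in all libraries against 728 for Elf3. Whether counting used strand is not given in the sources used here, so reads of the pair cannot be told apart.

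Syt9 and Bdh1 had lower means in young than in old muscle before injury. Syt9 was at 0.309, 6.05, 3.13 and 2.51 CPM in young and 6.33, 7.49, 9.76 and 8.41 CPM in old uninjured muscle. It had 1 count at day 7 in young muscle and was at 0.129, 0.475, 0 and 0 CPM in old vehicle muscle. At day 35 it was at 0.323, 0.372, 0 and 0.0784 CPM in young and 0.254, 0.184, 0.914 and 0.243 CPM in old vehicle muscle. The day 35 values of young muscle overlapped with the lowest uninjured library. Old vehicle muscle at day 35 had 4.99% of its uninjured mean, or 2.84% without library 8.

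Bdh1 was at 0.387, 3.03, 0.736 and 0.482 CPM in young and 15.7, 3.38, 6.08 and 7.78 CPM in old uninjured muscle. At day 7 it was at 0.198, 0.466, 0.494 and 0.0612 CPM in young and 0.355, 0.146, 1.05 and 0.470 CPM in old vehicle muscle. At day 35 it was at 0.258, 0.372, 0 and 0 CPM in young and 0.889, 0.246, 0.352 and 0.486 CPM in old vehicle muscle. Day 7 and day 35 overlapped in both ages, and old vehicle muscle stood at 6.14% (3.93% without day 7 library 9) and 5.99% of uninjured. Young muscle stood at 13.6% at day 35, a value that was 7.44% without library 2 of that group and 29.5% without library 2 of the uninjured group. The antisense gene Gm15743 overlaps Bdh1 but has only 14 counts in all libraries.

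Old and young uninjured muscle were then compared, a contrast that the choice of genes did not use, although its libraries entered the choice. A choice for large falls in either age favours genes with a high uninjured level in that age. The p-values of the 10 genes here are therefore not independent of the choice. Bdh1 was higher in old muscle, at 8.24 ± 5.30 against 1.16 ± 1.25 CPM (SD, n = 4), a log2 fold change of 2.82 (SE 0.82, edgeR adjusted p = 0.0207) with all 4 old libraries above all 4 young ones. It was the 1 member called of 10, where 13.4% of all genes tested were called. It had 52 counts over the 4 young and 539 over the 4 old libraries. Its call was lost with no filter on low counts (0.0563), without young library 1 (0.0858) or 3 (0.0862) and without old library 6 (0.0945), with adjusted p from 0.00533 to 0.0945 over all alternatives. Tmem132b (0.78, adjusted p = 0.408) and Syt9 (1.42, adjusted p = 0.283) were also above all young libraries, and Odf3l2 below them, without being called. Limma voom called Syt9 (2.04, adjusted p = 0.0178). The mean of Elf3 was 9.15 ± 6.90 CPM in young and 2.70 ± 1.10 CPM in old muscle, with overlapping libraries and a log2 fold change of -1.75 (SE 0.69, adjusted p = 0.0914). Dkk3 was at 55.2 ± 32.9 against 44.1 ± 19.0 CPM (0.32, adjusted p = 0.574), a sign that turned to -0.16 without old library 6. Rasd2 (0.61), Slc15a5 (0.51), Exph5 (-0.61) and Pkdrej (-0.54) overlapped between the ages.

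At day 7, 0 of the 10 genes differed between old and young muscle by edgeR, where 2.43% of all genes tested were called. The lowest adjusted p was 0.304, for Syt9, with 17 counts in old against 1 count in young muscle, and 0 of the 10 had an unadjusted p under 0.05. DESeq2 and limma voom also called 0 of the 10. At day 35, Odf3l2 was the 1 gene of 10 called, beside 3.51% of all genes. The median log2 fold change of old against young over the 10 genes was 0.42 in uninjured muscle, 0.21 at day 7 and -0.56 at day 35, beside 0.09, 0.04 and 0.01 over all genes tested. These libraries entered the choice of the genes for their falls, which can shift such medians, and the medians were not tested.

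BI01 was compared with vehicle in old muscle, since the series title concerns how blocking p53 from binding MDM2 affects aged muscle. At day 7, 0 of the 10 genes were called, and edgeR called 0 genes of all tested (0%). Unadjusted p was under 0.05 for 1126 genes, 2 of them among the 10, Exph5 and Slc15a5, while DESeq2 called 1 gene and limma voom 0. Exph5 had 26 counts with BI01 and 3 with vehicle, a ratio of 7.69 (exact 95% counting interval 2.36 to 39.7, edgeR adjusted p = 0.741). Its BI01 libraries were at 0.0749, 0.613, 0 and 0.0804 CPM, so 1 library carried most of it. Slc15a5 had 13 counts with BI01 and 0 with vehicle, at least 4.13-fold higher by the floor of 3 counts over the group (adjusted p = 0.741). Its BI01 libraries were at 0.412, 0, 0.0715 and 0 CPM.

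At day 35 edgeR again called 0 genes (0%) between BI01 and vehicle and 0 of the 10. Unadjusted p was under 0.05 for 530 genes, 1 of them among the 10, while DESeq2 called 11 genes and limma voom 0. Elf3 was the gene with the unadjusted p under 0.05 (0.00892, edgeR adjusted p = 1.0), with 1 count with BI01 and 21 with vehicle, a ratio of 20.1 (3.24 to 832). Odf3l2 was at 0.144, 2.17, 0.871 and 0.143 CPM with BI01, overlapping with vehicle (log2 fold change 0.10, interval -1.02 to 1.22). Rasd2 was at 2.16, 7.84, 3.89 and 3.80 CPM with BI01 (0.54, interval -0.80 to 1.88). Dkk3 was at 3.67, 1.57, 1.54 and 3.59 CPM (0.19, interval -0.61 to 0.99). The interval of Odf3l2 thus held a difference of 2-fold in either direction and that of Rasd2 a rise of 2-fold, while that of Dkk3 ended just short of it.

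Day 35 against day 7 in old BI01 muscle rests on 8 libraries. The genes were not chosen on this contrast, but whether the choice used these libraries is not stated. EdgeR called 5 of the 10, or 3 higher and 2 lower, where 55.6% of all genes tested were called. Odf3l2 rose from 1 count to 46 counts, a ratio of 94.6 (exact 95% counting interval 16.1 to 3815, adjusted p = 5.82e-06), with every day 35 library above every day 7 library. Slc15a5 rose from 0.121 ± 0.197 to 1.29 ± 1.01 CPM (SD, n = 4), a log2 fold change of 3.41 (SE 0.87, adjusted p = 0.00195), with day 35 libraries at 0, 1.05, 1.74 and 2.37 CPM and 1 of them at the day 7 level. Dkk3 had 8.86 ± 1.37 CPM at day 7 and fell to 2.59 ± 1.20 CPM, a log2 fold change of -1.77 (SE 0.38, adjusted p = 0.000214), with every day 35 library below every day 7 library. These 3 calls held under every alternative in which the gene was tested, with adjusted p up to 0.000546 for Odf3l2, 0.0311 for Slc15a5 and 0.00877 for Dkk3. In the fit of the 2 groups alone, Odf3l2 and Bdh1 did not pass the filter on low counts and were not tested. The main fit, in which they were tested, applied the filter over all 8 groups.

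The calls of Tmem132b and Bdh1 in the same comparison were lost when single libraries were left out. Tmem132b was at 0.674, 0, 0.143 and 0.965 CPM at day 7 and 0.0719, 4.03, 2.01 and 0.359 CPM at day 35 (1.92, SE 0.76, edgeR adjusted p = 0.0345). Its groups overlapped, and without day 35 library 7 the log2 fold change was 0.96 (adjusted p = 0.344). The call was also lost with library size alone (1.06, adjusted p = 0.209) and by DESeq2 (0.0606) and limma voom (0.105), with 0.00891 to 0.344 over all alternatives. Bdh1 was at 0.487, 0, 2.40 and 1.17 CPM at day 7 and 0.144, 0.149, 0.335 and 0.143 CPM at day 35 (-2.33, SE 0.96, adjusted p = 0.0402). Without day 7 library 3 it was -1.43 (adjusted p = 0.232), by limma voom -0.56 (0.741), and its adjusted p ran from 0.00516 to 0.741. Of the others, Rasd2 was at 2.92, 0, 2.07 and 2.45 CPM at day 7 and 2.16 to 7.84 CPM at day 35 (1.27, SE 0.68, adjusted p = 0.114), and limma voom called it (2.90, adjusted p = 0.0121). Syt9 (0.99), Exph5 (-0.48), Elf3 (1 count against 18) and Pkdrej (-0.38) were not called by edgeR. With library size alone edgeR called Elf3 (-3.47, adjusted p = 0.0294) and Pkdrej (-1.23, adjusted p = 0.0419) lower, and DESeq2 called Elf3 lower (-2.88, adjusted p = 0.0477). Day 35 library 7 was the highest of its group for Rasd2, Tmem132b, Syt9, Odf3l2 and Exph5, and held the 1 count of Elf3. Without it the day 35 percent of uninjured went from 4.92 to 2.48% for Tmem132b, from 5.26 to 1.42% for Syt9, from 6.54 to 3.04% for Odf3l2 and from 4.00 to 0.606% for Exph5. In the same comparison 15 of 17 fast fibre markers were called higher, such as Ckm (2.67, SE 0.38, adjusted p = 7.68e-07).

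**Figure D3:**
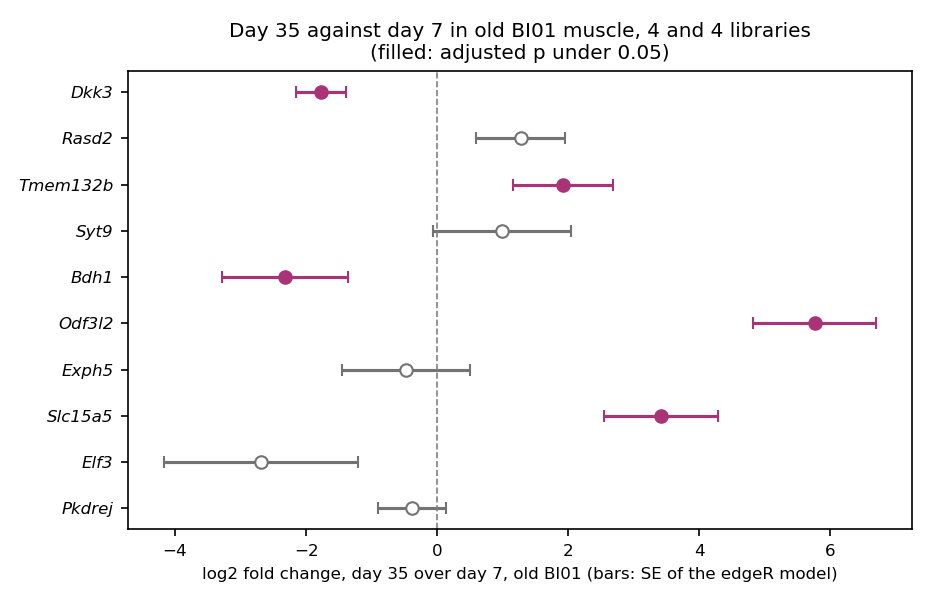
Log2 fold change of day 35 over day 7 in old BI01 muscle for each gene, with a standard error derived from the edgeR test statistic. Filled symbols mark an adjusted p under 0.05 and open ones the rest. Of the filled symbols, Odf3l2, Slc15a5 and Tmem132b lay above 0 and Dkk3 and Bdh1 below it. The fitted values of Odf3l2 (5.76) and Elf3 (-2.69) depend on the prior count, because Odf3l2 at day 7 and Elf3 at day 35 had 1 count.

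A list of 57 close relatives of the 10 genes was examined beside them, of which 37 passed the filter. More relatives were called higher than lower at day 7: 18 of the 37 rose and 6 fell in young muscle, and 18 higher and 4 lower in old vehicle muscle. At day 35, 2 were called higher and 2 lower in young and 2 higher and 1 lower in old vehicle muscle. Of all genes tested, 33.3% were called higher and 27.5% lower at day 7 in young, and 34.4% and 29.8% in old vehicle muscle. At day 35 these shares were 7.06% and 8.66% in young and 3.17% and 2.47% in old vehicle muscle. The median log2 fold change of the relatives at day 7 was 1.03 in young and 1.52 in old muscle, beside 0.17 and 0.14 for all genes.

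Tmem132a, of the same family of transmembrane proteins as Tmem132b, moved against it. It was at 0.773, 1.25, 1.29 and 0.772 CPM in young uninjured muscle and 35.8, 42.7, 46.7 and 41.0 CPM at day 7 (5.34, SE 0.41, edgeR adjusted p = 6.67e-12), and back at 1.29, 0.957, 1.30 and 1.02 CPM at day 35. In old vehicle muscle it went from 5.19 ± 4.11 to 36.5 ± 5.35 and 4.57 ± 1.00 CPM (SD, n = 4). It was higher in old than in young muscle before injury (2.37, SE 0.40, adjusted p = 0.000312) and at day 35 (2.00, SE 0.39, adjusted p = 0.00218, and 0.0545 by limma voom). Elf4, an ETS factor like Elf3, had 3.11 ± 0.692 CPM in young uninjured muscle and rose to 23.0 ± 5.61 CPM at day 7, a log2 fold change of 2.89 (SE 0.26, adjusted p = 1.28e-10). Sytl2, a synaptotagmin-like effector of Rab27 as is the product of Exph5, rose from 2.23 ± 0.478 to 26.5 ± 6.63 CPM (3.58, SE 0.34, adjusted p = 2.62e-10). Pkd2, a polycystin channel gene, was called higher at day 35 in both young (0.81, adjusted p = 0.00206) and old vehicle muscle (0.83, adjusted p = 0.00360), where Pkdrej was low.

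Slc15a4, a lysosomal transporter of histidine and peptides, was 1 of the 2 relatives called lower at day 35 in young muscle. It was at 76.6, 30.3, 64.1 and 22.6 CPM before injury, 15.1 ± 4.06 at day 7 and 15.0, 16.1, 14.4 and 12.2 CPM at day 35 (-1.75, SE 0.28, edgeR adjusted p = 0.000101). Young uninjured libraries 1 and 3, which held the high Elf3 values, were also the high ones for Slc15a4. In old vehicle muscle Slc15a4 was at 24.6 ± 4.51 CPM before injury and 14.2 ± 1.39 at day 35 (-0.79, adjusted p = 0.0975). Syt11, a synaptotagmin relative of Syt9, was called lower at day 35 in old vehicle muscle (-0.74, adjusted p = 0.0360), a call that limma voom (0.0968) and leaving out single libraries lost (0.00331 to 0.139 over all alternatives).

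**Figure D4:**
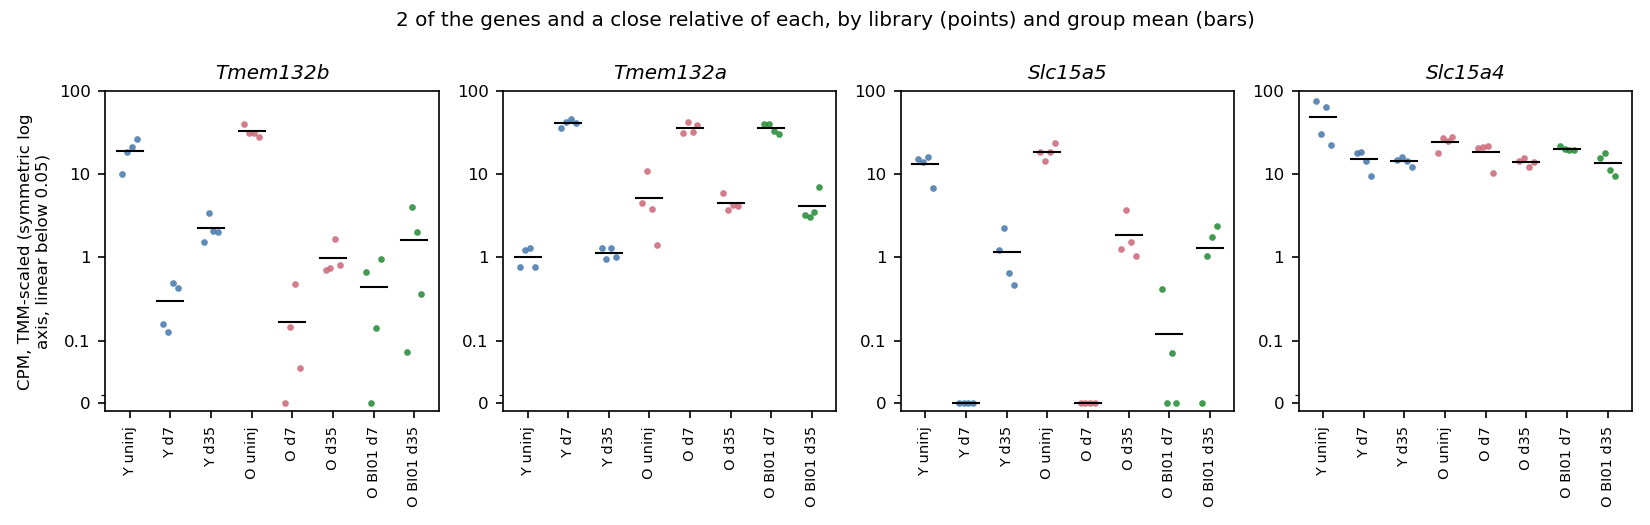
Tmem132b and Slc15a5 with one relative of each, Tmem132a and Slc15a4, in every library (points) with group means (bars), on a symmetric log axis of CPM that is linear below 0.05. Tmem132a was high at day 7, where Tmem132b was near 0, and Slc15a4 stayed near 14 CPM at day 35, where Slc15a5 was at 0.470 to 3.68 CPM in the vehicle arms.

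Other genes of ketone body metabolism were examined beside Bdh1. Of 8 such genes, 1 was called higher and 3 lower at day 7 in young muscle and again 1 and 3 in old vehicle muscle. In young muscle the calls of Acat1 (-1.02, edgeR adjusted p = 6.69e-06) and Slc16a3 (-1.28, adjusted p = 0.000343) were lost with library size alone, at -0.15 (adjusted p = 0.453) and -0.43 (adjusted p = 0.172). At day 35, 0 of the 8 were called in old vehicle muscle. Oxct1, whose enzyme activates acetoacetate in tissues that burn ketone bodies, was at 397 ± 80.5 CPM in old uninjured muscle, 146 ± 46.9 at day 7 (-1.44, SE 0.23, edgeR adjusted p = 2.18e-06) and 423 ± 70.8 at day 35. Acat1, the thiolase of the next step, went from 232 ± 22.5 to 77.6 ± 19.0 CPM at day 7 (-1.58, SE 0.17, adjusted p = 3.63e-09) and to 197 ± 9.87 CPM at day 35 (-0.24, adjusted p = 0.533). Slc16a3, a monocarboxylate transporter that exports lactate, went from 523 to 68.2 CPM at day 7 (-2.94, SE 0.31, adjusted p = 1.39e-09) and to 596 CPM at day 35.

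Across the 8 group means (Pearson r over log2 CPM, a description over 8 points that share their injury course), each of the 10 genes ran with the mean of the other 9, from r = 0.75 for Bdh1 and 0.77 for Dkk3 to 0.961 for Exph5. Because all 10 were chosen for falls after injury, a high r follows from the choice and is no separate result. Among other genes with at least 5 CPM in their highest group, Zfp467 (r = 0.981), Mllt1 (0.980), Cdk19 (0.980) and Entpd6 (0.978) were most like the average course, followed by Zfp597 and Sdccag8. Cdk19, a kinase of the Mediator complex, was at 60.1 CPM in young uninjured muscle, 13.3 at day 7 and 24.6 at day 35. Ces1d, a carboxylesterase gene and the one most like Tmem132b (r = 0.984), had a deep fall too, from 63.4 to 1.20 and 5.27 CPM in young and from 43.3 to 1.11 and 3.93 CPM in old vehicle muscle. Pla2g7, which encodes a secreted phospholipase that degrades platelet-activating factor, was most like Exph5 (r = 0.986), at 117 CPM in young uninjured muscle and 15.0 CPM at day 35. Pde8a, a cyclic AMP phosphodiesterase, was most like Dkk3 (r = 0.960), at 41.2, 13.5 and 9.29 CPM, and Mss51, a muscle gene of mitochondrial metabolism, most like Bdh1 (r = 0.945), at 70.2 CPM in young and 235 CPM in old uninjured muscle and 27.8 and 28.3 CPM at day 35. For Odf3l2 it was Top1mt, the mitochondrial topoisomerase (r = 0.987), for Rasd2 Prpf3 (0.996), for Slc15a5 Zdhhc18 (0.993), for Elf3 Otub1 (0.991), for Pkdrej Cacng7 (0.989) and for Syt9 Zfp467 (0.980). Pearson r ignores the size of a fall, and some of these genes fell far less than the gene they match. In young uninjured, day 7 and day 35 muscle Prpf3 was at 18.55, 10.58 and 14.24 CPM. Otub1 was at 55.56, 40.54 and 41.25 CPM.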

How the data were processed

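RNA-seq was done on 32 libraries in 8 groups of 4. The deposited table holds the authors' raw counts per gene. HISAT2 and mm10 are named per the submitters' processing notes. For the aligner version, counting tool, annotation and use of strand, the sources used here give nothing. Total counts per library were 14129350 to 30439358.

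The 10 genes and the gene lists were chosen with earlier results of these data known. Counts were fitted with edgeR 4.0.16 (R 4.3.3) by its quasi-likelihood test, with TMM scaling, its filter on low counts, all 32 libraries and 1 mean per group. P-values were adjusted by Benjamini-Hochberg over 17121 genes and called under 0.05. SE is the absolute log2 fold change divided by the square root of the quasi-likelihood F statistic, and is not an edgeR output. Intervals of a log2 fold change are 95% normal intervals from that SE. Contrasts that chose the genes (day 7 or day 35 against uninjured) and vehicle day 35 against day 7 are described without a test for the 10 genes. Groups with 0 counts were set at a floor of 3 counts over the group, and groups with 1 to 3 counts are given as ratios with exact 95% intervals, which cover counting error only. Alternatives were DESeq2 1.42.0 and its size factors, limma 3.58.1 voom, library size alone, a filter of 1 CPM, no filter, only the 2 groups compared, each library left out, and, added after seeing the data, a replicate block and the ratio to fibre markers without each library. From each list, up to 3 genes with the smallest p in a comparison were named. Likeness was Pearson r over the 8 group means of log2 CPM (prior count 2), over protein-coding genes whose highest group mean reached 5 CPM. The 6 genes most like the mean of the 10 and the 2 most like each gene were eligible to be named. The fit was tested on simulated data with 1 contrast, a single spread for all genes and no planted change in the least expressed genes. That run does not test the calls of genes with few counts. Libraries are named by their group and the number in the table's column. No 2 libraries of a group agreed within sampling noise. A result of the ketone body list is not reported here.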

Additional observations from a re-analysis of the deposited data

Results flagged for a closer look

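In groups of 4 libraries with at least 10 counts, 5 of 60 gene and group combinations had 1 library whose gap to the nearest other exceeded Dixon's 95% critical share of the range. Chance flags about 1 in 20. In old vehicle muscle at day 35, Dkk3 was low in library 7, at 1.72 CPM against 2.41 to 2.51 in the others. Tmem132b was high in library 8 of that group, at 1.69 CPM against 0.699 to 0.810. Syt9 was high in the same library, at 0.914 CPM against 0.184 to 0.254. Bdh1 was high in library 2 of young uninjured muscle, at 3.03 CPM against 0.387 to 0.736. Exph5 was high in library 2 of old BI01 muscle at day 7, at 0.613 CPM against 0 to 0.0804.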

How the results depend on the processing

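For old against young uninjured muscle, 1524 genes were called with no filter and 1411 with only the 2 groups compared, against 2302, and 1013 to 2850 with a library left out. Of the 10 genes, 0 were called with no filter, 2 by limma voom and 0 to 1 with a library left out. At day 7 the count was 712 with library size alone, 171 with no filter, 825 by DESeq2, 1263 by limma voom, 0 with only the 2 groups compared and 7 to 1012 with a library left out, against 416. At day 35 it was 922 by DESeq2, 1950 with only the 2 groups compared (3 of the 10 genes) and 330 to 442 with a library left out, against 601. For BI01 against vehicle, DESeq2 called 1 gene at day 7 and 11 at day 35, and leaving out a library gave 0 to 54 at day 7. For day 35 against day 7 with BI01, 3 of the 10 genes were called with no filter, 2 with only the 2 groups compared and 3 to 5 with a library left out. Day 35 against uninjured gave 1309 to 3103 genes in young and 556 to 885 in old muscle with a library left out, and 2600 in old muscle with only the 2 groups compared. With library size alone the median percent of uninjured at day 7 was 2.23 in young, 2.95 in old vehicle and 7.78 in BI01 muscle, and leaving out a library gave 2.01 to 4.96 in BI01 muscle. The cause of these shifts was not tested.

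Signs that turned were all of differences that were not called. By limma voom, Elf3 was at -0.0224 for age at day 35. For BI01 at day 7, Rasd2 was at -0.90, Syt9 at -0.000702 and Bdh1 at -0.35, and at day 35 Tmem132b was at -0.29, Syt9 at -0.84 and Odf3l2 at -0.38. With a library left out, Dkk3 ran from -0.16 to 0.53 for age in uninjured muscle, Pkdrej from -0.27 to 0.37 for age at day 7 and Elf3 from -0.34 to 0.69 for age at day 35. For BI01 at day 7, Dkk3 ran from -0.30 to 0.13, Syt9 from -1.52 to 1.89 and Pkdrej from -0.44 to 0.15. For BI01 at day 35, Dkk3 ran from -0.0231 to 0.38, Tmem132b from -0.24 to 1.11, Syt9 from -1.72 to 0.86 and Odf3l2 from -0.96 to 0.53. For day 35 against day 7 with BI01, Syt9 ran from -0.79 to 2.87 and Exph5 from -2.81 to 1.39.

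Some table columns share numbers, and a replicate block by that number was added after seeing the data, fitted to the same-numbered libraries of the 2 groups compared. Same-numbered libraries correlated at -0.1 to 0.034 for BI01 against vehicle at day 35, where 0 of 4 correlated best with their own number and the fit gave 0 calls with or without the block. For day 35 against uninjured the range was -0.032 to 0.16 in young (3 of 4) and 0.0089 to 0.11 in old muscle (2 of 4). The replicate block gave 2386 and 2571 genes, beside 1947 and 2600 in the 2 groups without it and 2691 and 966 with all libraries. For day 7 against uninjured in old muscle, which share 3 numbers, the range was 0.041 to 0.15 (3 of 3), with 8912 genes under the block, 9596 in the 2 groups without it and 10995 with all libraries. Under the block Odf3l2 was at -0.25 for BI01 at day 35. In the other comparisons no such block could be fitted, because their columns share 0 or 1 numbers.

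Exph5, Syt9 and Elf3 had under 30 counts over 4 libraries in all 6 injured groups, Bdh1 in 4, and Slc15a5, Odf3l2 and Pkdrej in 3, which limits what these groups can show.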
